A study of Danio rerio with 6 samples.

Results

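The csf1 receptors and their ligands are 5 genes of the 32520 in the zebrafish skin RNA-seq table: the receptor genes csf1ra and csf1rb and the ligand genes csf1a, csf1b and il34. They were selected by gene name, and all 5 were found once and passed the filter on low values. The 5 genes and the gene lists below were chosen with earlier results of these data known. Counts of them called are therefore descriptions and no independent test. Sorted mpeg1-GFP+ cells from skin of untreated adults aged 3 months gave the RNA, in 3 groups of 2 libraries. The first group was GFP+DsRed- cells of csf1rDM fish, homozygous for csf1ra j4e1 and for csf1rb sa1503, an allele that per the study hits an essential splice site and introduces a premature stop. The second was GFP+DsRed+ cells and the third GFP+DsRed- cells of control fish, which were wild-type at both receptor genes. Fish of all groups carried the transgenes mpeg1-EGFP, Kdrl:Cre and act2b:loxP-STOP-loxP-DsRedexpress. GFP is therefore driven by the mpeg1 promoter, and DsRed is switched on for good in cells whose precursors expressed kdrl, which include the progenitors of blood. The sample labels state DsRed only for the GFP+DsRed+ cells, and the DsRed- status of the other groups comes from the study's description. No GFP+DsRed+ library of csf1rDM fish was among those analysed here, so that csf1rDM cells and GFP+DsRed+ control cells differ in both genotype and population.

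Csf1r is a receptor tyrosine kinase on which mononuclear phagocytes depend for survival, proliferation and differentiation, and it is activated by Csf1 and by Il34. Zebrafish retain a pair of receptor genes and a pair of csf1 genes from the teleost genome duplication. In mouse skin, Il34 made by keratinocytes maintains Langerhans cells, and in zebrafish csf1ra is also required by xanthophores, the yellow pigment cells of the skin.

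Gene-assigned reads, recovered from the deposited values, numbered 5072642 and 4024254 in the csf1rDM libraries, 10069877 and 14816042 in the GFP+DsRed+ control libraries, and 11363542 and 10448033 in the GFP+DsRed- control libraries. A floor of 3 reads lay at 0.591 and 0.745 CPM (counts scaled to a library total of 1000000) in the csf1rDM libraries and between 0.202 and 0.298 CPM in the 4 control libraries. Nothing in the labels says that the libraries of a group came from separate fish, so p-values measure the spread between these libraries, which may be technical. Differences were tested with limma across 20382 genes, on log2(CPM + 1), and a gene was called at an adjusted p (Benjamini-Hochberg over all genes tested) below 0.05. The composition factors used raised the median log2 fold change of all genes by 0.18 between the control populations and by 0.129 between the genotypes.

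The receptor genes were examined first. Transcripts of csf1ra (ENSDARG00000102986) stood at 1.40 and 2.25 CPM in the csf1rDM libraries (replicates 2 and 3), at 1081 and 1124 CPM in the GFP+DsRed+ control libraries (replicates 1 and 3), and at 102.1 and 86.9 CPM in the GFP+DsRed- control libraries (replicates 1 and 2). The 3 groups did not overlap, with GFP+DsRed+ control cells highest and csf1rDM cells lowest. In reads, these levels were 7 and 9 in the csf1rDM libraries, 10890 and 16658 in the GFP+DsRed+ control libraries, and 1161 and 908 in the GFP+DsRed- control libraries. For csf1rb (ENSDARG00000053624), no read was found in either csf1rDM library, whereas the GFP+DsRed+ control libraries held 34.1 and 47.7 CPM (343 and 707 reads) and the GFP+DsRed- control libraries 0.55 and 0.60 CPM (6 reads each). Levels of csf1rb were thus highest in GFP+DsRed+ control cells, as were those of csf1ra, and in GFP+DsRed- control cells they rested on few reads.

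The ligand genes had a different order of groups. Levels of csf1a (ENSDARG00000075343), one of the paired genes for Csf1, were 3.95 and 5.50 CPM in the csf1rDM libraries, 2.00 and 1.70 CPM in the GFP+DsRed+ control libraries, and 7.39 and 4.90 CPM in the GFP+DsRed- control libraries. Both GFP+DsRed+ control libraries lay below all 4 GFP+DsRed- libraries, among which the genotypes overlapped. These csf1a values rest on 20 and 22 reads in csf1rDM, 20 and 25 reads in GFP+DsRed+ control and 84 and 51 reads in GFP+DsRed- control libraries. Its paralog csf1b (ENSDARG00000068263) stood at 37.9 and 22.1 CPM in the csf1rDM libraries, 17.5 and 13.3 CPM in the GFP+DsRed+ control libraries, and 35.5 and 46.7 CPM in the GFP+DsRed- control libraries. Again the GFP+DsRed+ control libraries were the lowest and the genotypes of the GFP+DsRed- cells overlapped. The third ligand gene, il34 (ENSDARG00000091003), had 26.0 and 16.2 CPM in the csf1rDM libraries, 5.40 and 5.15 CPM in the GFP+DsRed+ control libraries, and 15.8 and 12.8 CPM in the GFP+DsRed- control libraries. For il34 the 3 groups did not overlap, and the csf1rDM libraries were the highest, with a gap to GFP+DsRed- control cells that was smaller than the distance between the csf1rDM libraries themselves.

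**Figure D1:**
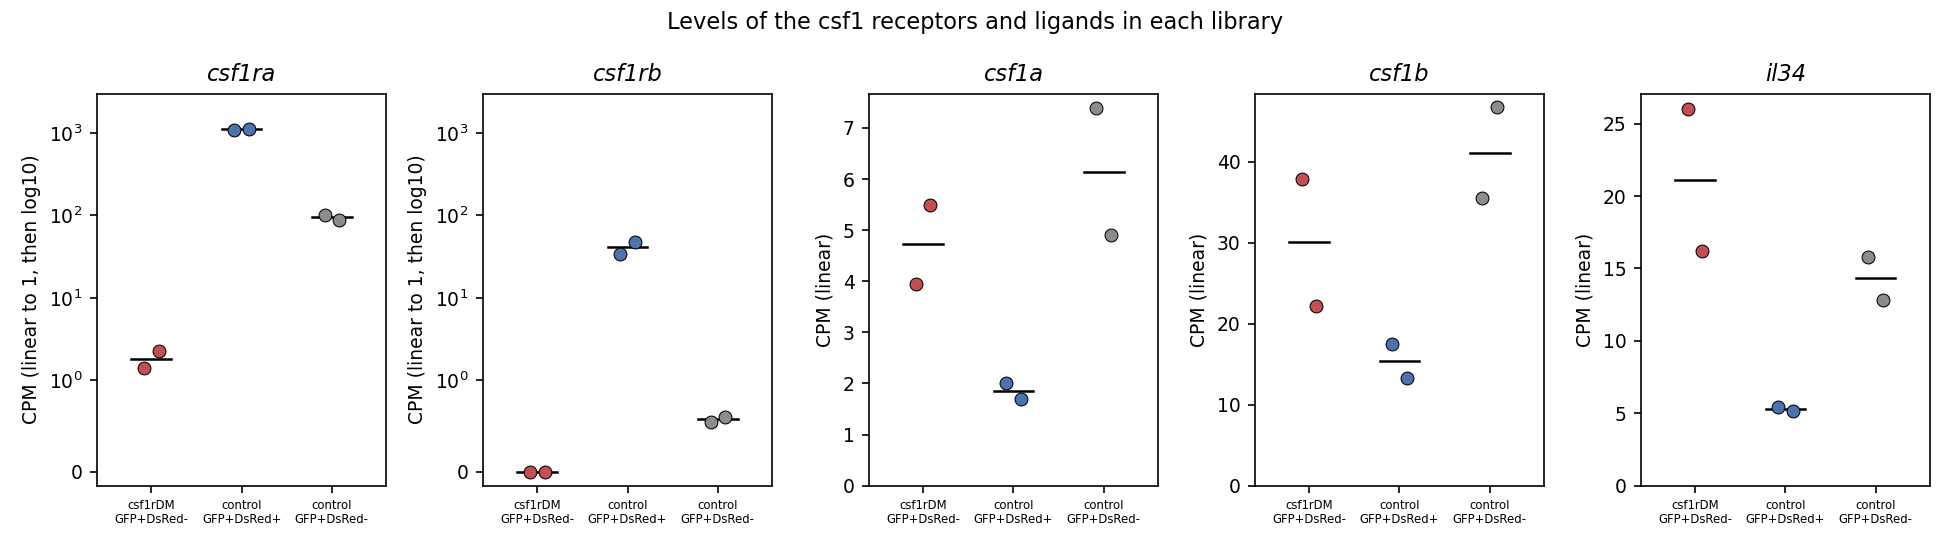
Levels of csf1ra, csf1rb, csf1a, csf1b and il34 in CPM for each library, by group; points are the 2 libraries of a group and bars their mean. The axes of the receptor genes are linear up to 1 CPM and log10 above it, and those of the ligand genes are linear. Both receptor genes were highest in GFP+DsRed+ control cells (1081 and 1124 CPM for csf1ra), whereas all 3 ligand genes were lowest there (5.40 and 5.15 CPM for il34).

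To ask how the receptors and ligands differ between blood-derived and unmarked mpeg1+ skin cells, GFP+DsRed+ control cells were set against GFP+DsRed- control cells. All 5 genes passed the test, in opposite directions for the receptors and the ligands. Both receptor genes were higher in GFP+DsRed+ cells, against 14.6% of all genes tested that were called higher, and all 3 ligand genes were lower, against 10.8% of all genes called lower. Levels of csf1ra averaged 1100 ± 30.1 CPM in GFP+DsRed+ control cells and 94.5 ± 10.8 CPM in GFP+DsRed- control cells (SD, n = 2 each), an 11.7-fold difference of the means and a log2 fold change of 3.75 ± 0.19 (SE of the model, limma adjusted p = 8.55e-05). For csf1rb the means were 40.9 ± 9.64 CPM in GFP+DsRed+ control cells and 0.575 ± 0.0354 CPM in GFP+DsRed- control cells, with a log2 fold change of 4.85 ± 0.27 (limma adjusted p = 8.92e-05). Because 1 CPM is added before the logarithm, this value understates the difference of a gene as low as csf1rb, and with 0.25 added instead it was 5.80. Only the GFP+DsRed+ control libraries brought csf1rb over the filter on low values, so its entry to the test depended on a high level there. With no filter on low values its log2 fold change was 4.85 (limma adjusted p = 0.000441). In bulk RNA, fewer cells of a type and less RNA per cell cannot be told apart, which applies to each of these levels.

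Each ligand gene fell in GFP+DsRed+ control cells. The log2 fold change was -1.14 ± 0.29 for csf1a (limma adjusted p = 0.0276), -1.15 ± 0.31 for csf1b (limma adjusted p = 0.0361) and -1.09 ± 0.27 for il34 (limma adjusted p = 0.0275). Mean levels in GFP+DsRed+ cells were 30.1% of those in GFP+DsRed- control cells for csf1a, 37.4% for csf1b and 36.8% for il34. These 3 calls were not robust to the loss of a library. When GFP+DsRed+ control replicate 1 or 3 or GFP+DsRed- control replicate 1 or 2 was left out, which leaves a lone library assumed to vary like the other groups, no ligand gene passed. The log2 fold change then lay between -1.34 and -0.90 for csf1a (limma adjusted p between 0.0721 and 0.175), between -1.37 and -0.91 for csf1b (0.0575 to 0.216) and between -1.18 and -0.97 for il34 (0.0815 to 0.153). The receptor calls held in each of these fits that could test them, since without a GFP+DsRed+ library csf1rb no longer passed the filter on low values. Over all genes, 1949 were called without GFP+DsRed+ control replicate 3, 2988 without GFP+DsRed- control replicate 1 and 2378 without GFP+DsRed- control replicate 2, against 5180 with all libraries. With library totals alone in place of composition factors, the same 5 genes were called, and the share of higher genes among all calls was 42.1% instead of 57.6%.

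Epithelial genes moved in the same direction as the ligands. Metaphocytes are epithelial-like, non-hematopoietic mpeg1+ skin cells. Of 10 epithelial and metaphocyte genes, 0 were called higher and 6 lower in GFP+DsRed+ control cells by limma, against 14.6% and 10.8% of all genes. At an unadjusted p below 0.05 these genes gave 0 and 10. No share of all genes was taken at that threshold, here or for the lists below, so such counts cannot be weighed against it. The median log2 fold change of the 10 genes was -1.14 against -0.03 over all genes tested. Their summed level was 10600 and 7130 CPM in the GFP+DsRed+ control libraries and 17100 and 21200 CPM in the GFP+DsRed- control libraries, and none of them was at 0 in any library. Most of this sum was the keratin gene krt5, at 6869 and 4403 CPM in GFP+DsRed+ and 9481 and 12545 CPM in GFP+DsRed- control libraries. Of 11 fibroblast and bone genes, 1 was called higher and 4 lower in GFP+DsRed+ control cells, against 14.6% and 10.8% of all genes. Their summed level was 7660 and 7580 CPM there, against 16900 and 15000 CPM in GFP+DsRed- control cells. Most of it was the collagen genes col1a1a, col1a1b and col1a2 (2477, 2783 and 2083 CPM in GFP+DsRed+ control replicate 1). Whether RNA of epithelial cells or fibroblasts had a part in the ligand difference between the populations was not tested.

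Leukocyte genes moved in the same direction as the receptors. All 13 macrophage and leukocyte genes found were called higher in GFP+DsRed+ control cells (median log2 fold change 5.32), against 14.6% of all genes. Some, such as mfap4 and c1qa, passed the filter on low values only through the GFP+DsRed+ control libraries. The entry of such genes to the test thus depended on a high level there. The summed level of the 13 genes was 4090 and 4340 CPM in the GFP+DsRed+ control libraries, against 554 and 265 CPM in the GFP+DsRed- control libraries. The mean level in GFP+DsRed- control cells was 8.57% of that in GFP+DsRed+ control cells for csf1ra and 1.41% for csf1rb. For the 13 leukocyte genes this share ranged from 0.459% to 35.7%, with a median of 2.47%, and it was 2.47% for ptprc (the pan-leukocyte gene encoding CD45), 1.27% for spi1b (a transcription factor gene of myeloid cells), 0.459% for c1qa, 33.1% for lcp1 and 35.7% for spi1a. The share of csf1rb was above that of 6 of the 13 leukocyte genes and the share of csf1ra above that of 9. Among reads of either receptor, csf1rb made up 3.05% (95% Wilson interval 2.75% to 3.39%) and 4.07% (3.79% to 4.38%) in the GFP+DsRed+ control libraries and 0.514% (0.236% to 1.12%) and 0.656% (0.301% to 1.42%) in the GFP+DsRed- control libraries. These intervals cover counting error only. The libraries of the populations did not overlap in this share, but with 2 libraries against 2 a two-sided exact permutation test cannot go below p = 0.333, and the difference was not tested further.

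The GFP+DsRed+ control cells also differed from GFP+DsRed- control cells in the levels of genes listed as xanthophore genes. Xanthophores are a skin cell type that itself depends on csf1ra. All 11 xanthophore genes were called lower in GFP+DsRed+ control cells (median log2 fold change -3.38), against 10.8% of all genes. Some, such as slc2a15b, passed the filter on low values only through the GFP+DsRed- control libraries, so their entry depended on a high level there. The summed level of the 11 genes was 72 and 94.1 CPM in the GFP+DsRed+ control libraries and 730 and 664 CPM in the GFP+DsRed- control libraries. Which cells supplied this RNA, and whether xanthophore RNA had a part in the csf1ra level of GFP+DsRed- control cells, was not tested.

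**Figure D2:**
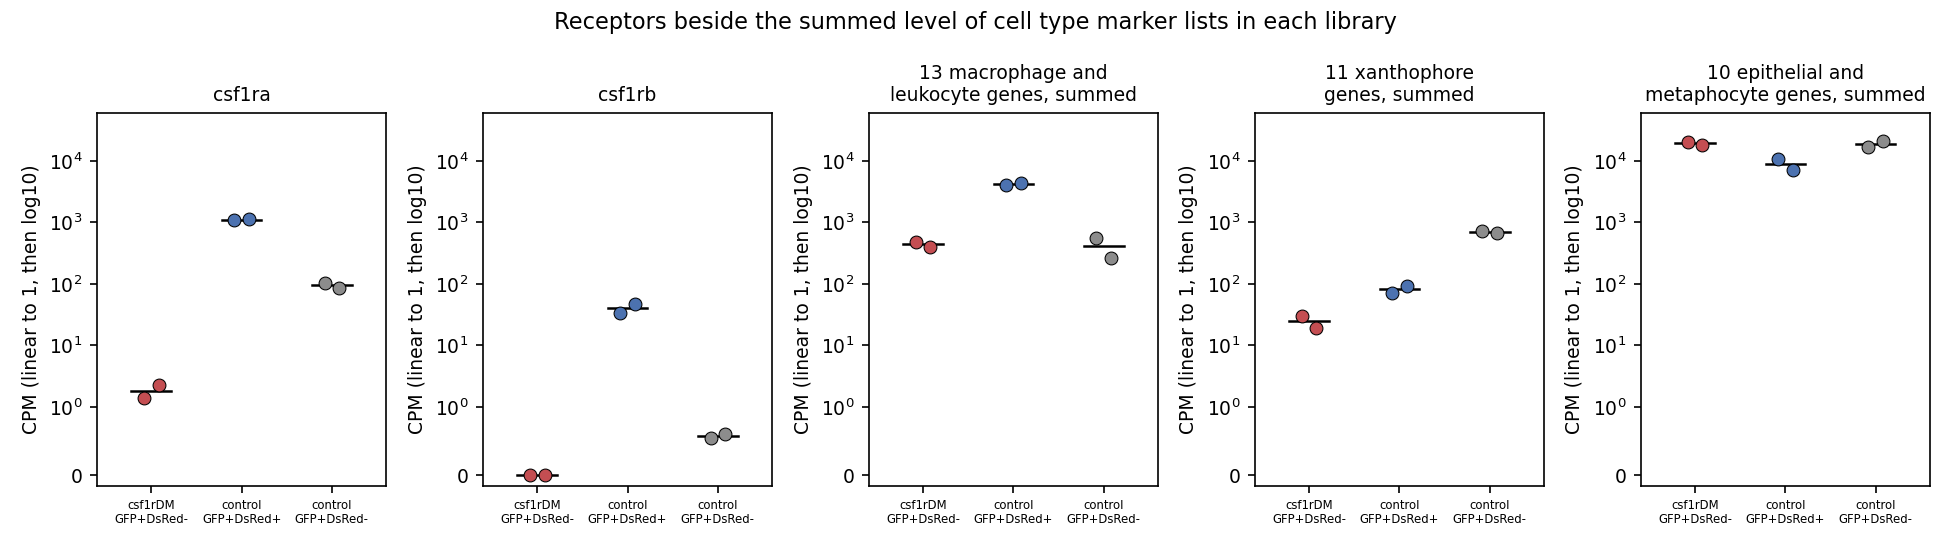
Levels of csf1ra and csf1rb beside the summed levels of 13 macrophage and leukocyte, 11 xanthophore and 10 epithelial and metaphocyte genes, in CPM on axes that are linear up to 1 and log10 above it; points are the 2 libraries of a group and bars their mean. Between csf1rDM and GFP+DsRed- control cells, the summed leukocyte level overlapped (481 and 398 CPM in csf1rDM, 554 and 265 CPM in control), while csf1ra and the summed xanthophore level did not. The summed leukocyte level of the GFP+DsRed- cells is led by a few genes such as spi1a, lcp1 and coro1a and says little of low genes such as marco. Most of the summed epithelial and metaphocyte level is krt5.

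Next, csf1rDM GFP+DsRed- cells were set against GFP+DsRed- control cells to ask whether receptor and ligand transcripts differ with the genotype in unmarked cells. Of the 5 genes, csf1ra alone passed the test. It was lower in csf1rDM cells, against 3.27% of all genes tested that were called lower. No member was called higher by limma, against 3.24% of all genes. At an unadjusted p below 0.05 no member was higher either, with no share of all genes at that threshold. Levels of csf1ra averaged 1.82 ± 0.601 CPM in csf1rDM cells and 94.5 ± 10.8 CPM in GFP+DsRed- control cells (SD, n = 2 each), or 1.93% of control, with a log2 fold change of -4.95 ± 0.19 (limma adjusted p = 0.000137). At the control level, both csf1rDM libraries together would have held 860 csf1ra reads, and they held 16. The call held in all 13 alternative fits, with log2 fold changes between -5.39 and -4.74. The table counts reads per gene and shows no alleles, so these levels are not a direct check of the genotype.

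For csf1rb, a difference between the genotypes was not called, and its levels rest on few reads. The log2 fold change was -0.61 ± 0.27 (limma adjusted p = 0.2), and -1.64 with 0.25 in place of 1 CPM added before the logarithm (limma adjusted p = 0.0531). The GFP+DsRed- control mean of 0.575 CPM lies under the floor of both csf1rDM libraries. At that mean, 2.92 reads would have been found in csf1rDM replicate 2 and 2.31 reads in replicate 3. Both csf1rDM libraries together would have held 5.23 reads, and they held none.

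The ligand genes did not pass the test between the genotypes. In csf1rDM relative to GFP+DsRed- control cells, the log2 fold change was -0.18 for csf1a (95% interval -0.86 to 0.50, limma adjusted p = 0.724), -0.33 for csf1b (-1.07 to 0.41, limma adjusted p = 0.543) and 0.64 for il34 (-0.01 to 1.29, limma adjusted p = 0.191). Mean il34 levels were 21.1 ± 6.96 CPM in csf1rDM cells and 14.3 ± 2.08 CPM in GFP+DsRed- control cells, a ratio of 1.47. The sign was positive for il34 in all 13 alternative fits, between 0.31 and 0.98. This adds little, as both csf1rDM libraries lay above both GFP+DsRed- control libraries for il34, and leaving one out could hardly turn the sign. The sign turned for csf1a without csf1rDM replicate 2 (0.01) or GFP+DsRed- control replicate 1 (0.05), and for csf1b without csf1rDM replicate 3 (0.06). The ratio of il34 to csf1b was 0.687 and 0.731 in the csf1rDM libraries and 0.445 and 0.275 in the GFP+DsRed- control libraries, without overlap, and 0.309 and 0.388 in the GFP+DsRed+ control libraries. This ratio was formed after the values were seen and was not tested. Per 1000 CPM of the epithelial gene cdh1, il34 overlapped between the genotypes, at 15.9 and 9.6 in csf1rDM and 11.2 and 8.87 in GFP+DsRed- control libraries. The ratio of csf1a to csf1b overlapped as well.

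The count of genes called between the genotypes depended on single libraries. With all 6 libraries 1327 genes were called, and there were 480 without csf1rDM replicate 3, 730 and 747 without GFP+DsRed+ control replicates 1 and 3, and 199 and 115 without GFP+DsRed- control replicates 1 and 2. With library totals alone, 30.7% instead of 49.8% of all genes called were higher in csf1rDM cells.

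The marker lists differed between the genotypes as follows. All 11 xanthophore genes were called lower in csf1rDM cells, against 3.27% of all genes tested. Some, such as slc2a15b, entered the test only through the GFP+DsRed- control libraries. The median log2 fold change of the 11 genes was -4.93, against -0.05 over all genes tested. It was the same with the 3 genes at 0 in both csf1rDM libraries set to their bound. Their summed level was 30.6 and 18.9 CPM in the csf1rDM libraries and 730 and 664 CPM in the GFP+DsRed- control libraries, and 4 of them were at 0 in each csf1rDM library. Whether xanthophore RNA had a part in the csf1ra difference between the genotypes was not tested. Of the 13 leukocyte genes, only the cathepsin gene ctss2.1 was called, against 3.24% of all genes called higher. It was higher in csf1rDM cells (66.8 and 93.2 CPM in csf1rDM, 38.5 and 29.7 CPM in GFP+DsRed- control libraries), and the median log2 fold change of the list was 0.09. In csf1rDM libraries 3 and 1 of the 13 leukocyte genes were at 0, among them mfap4 in both, whereas spi1a stood at 136.6 and 103.6 CPM. None of the 13 was at 0 in GFP+DsRed- control libraries, where mfap4 stood at 0.80 and 0.50 CPM and spi1a at 160.1 and 72.5 CPM. The summed level of the list was 481 and 398 CPM in csf1rDM libraries and 554 and 265 CPM in GFP+DsRed- control libraries, which overlapped. Its largest parts in csf1rDM replicate 2 were spi1a, lcp1 and coro1a (136.6, 125.1 and 86.3 CPM). There marco stood at 0.2 CPM and spi1b at 2.4 CPM, so the sum says little of such low genes. Of the 10 epithelial and metaphocyte genes, cldn7b alone was called (log2 fold change 0.63, limma adjusted p = 0.0495), higher in csf1rDM cells. Other marker lists also held called genes, against 3.27% of all genes called lower and 3.24% called higher. Of the fibroblast and bone genes, 5 of 11 were called lower in csf1rDM cells. Their summed level was 4700 and 1960 CPM in csf1rDM and 16900 and 15000 CPM in GFP+DsRed- control libraries. Most of it was the collagen genes col1a1a, col1a1b and col1a2 (5652, 6134 and 4513 CPM in GFP+DsRed- control replicate 1). Some of the 11 genes, such as dcn and runx2a, overlapped between the genotypes. Also called lower were 4 of 7 melanophore, 3 of 8 iridophore and 1 of 7 T and NK lymphocyte genes. Of 4 neutrophil entries tested, which included a pair of mmp13a entries, 2 were called higher. The mmp13a entries had 17.3 and 13.7 CPM and 3.2 and 2.25 CPM in csf1rDM libraries. In GFP+DsRed- control libraries they had 0.8 and 2.05 CPM and 0.3 and 0.5 CPM. The lower of these entries passed the filter on low values only through the csf1rDM libraries. For mmp9 the levels were 41.2 and 60.9 CPM in csf1rDM and 39.7 and 16.7 CPM in GFP+DsRed- control libraries. The neutrophil gene mpx stood at 1.4 and 30.3 CPM in csf1rDM and 1 and 0.5 CPM in GFP+DsRed- control libraries. Its high level thus rested on csf1rDM replicate 3. For lyz the levels were 0.2 and 0 CPM in csf1rDM and 0.3 and 0.5 CPM in GFP+DsRed- control libraries. The part of these lists in the levels of the 5 genes was not tested.

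Compared with GFP+DsRed+ control cells, csf1rDM GFP+DsRed- cells differed in 4 of the 5 genes, in a comparison that shares libraries with both others. Both receptor genes were lower, against 18.3% of all genes tested, and csf1a and il34 were higher, against 14.1% of all genes tested. The csf1ra mean in csf1rDM cells was 0.165% of that in GFP+DsRed+ control cells (log2 fold change -8.70 ± 0.19, limma adjusted p = 1.08e-05), which ranked 1 of 20382 genes by p. In csf1rDM cells csf1rb was at least 54.9-fold lower, taking 3 reads in the shallower csf1rDM library as the floor (limma adjusted p = 5.94e-05). Here too csf1rb entered the test only through the GFP+DsRed+ control libraries. With no filter on low values its log2 fold change was -5.46 (limma adjusted p = 0.000316). At the GFP+DsRed+ control level, both csf1rDM libraries together would have held 372 csf1rb reads.

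Among the ligand genes, il34 had the smallest adjusted p in this comparison. Its mean in csf1rDM cells was 4.01 times that in GFP+DsRed+ control cells (log2 fold change 1.73 ± 0.27, limma adjusted p = 0.00372), and the call held in all 13 alternative fits. The increase of csf1a was 0.96 ± 0.29 (limma adjusted p = 0.0416). It did not pass without csf1rDM replicate 3 (0.77, limma adjusted p = 0.125), without GFP+DsRed+ control replicate 1 (1.05, 0.115) or 3 (0.86, 0.195), or without GFP+DsRed- control replicate 1 (0.95, 0.064) or 2 (0.95, 0.0637). For csf1b the log2 fold change was 0.82 ± 0.31 (limma adjusted p = 0.0865), and it passed without csf1rDM replicate 3 (1.21, limma adjusted p = 0.0348). Over all genes, 4146 and 3095 were called without GFP+DsRed+ control replicates 1 and 3, against 6610 with all libraries. Epithelial genes were again on the side of the ligands, with 8 of 10 called higher in csf1rDM cells, against 14.1% of all genes. Their summed level was 20100 and 18400 CPM in the csf1rDM libraries and 10600 and 7130 CPM in the GFP+DsRed+ control libraries, and their part was not tested.

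**Figure D3:**
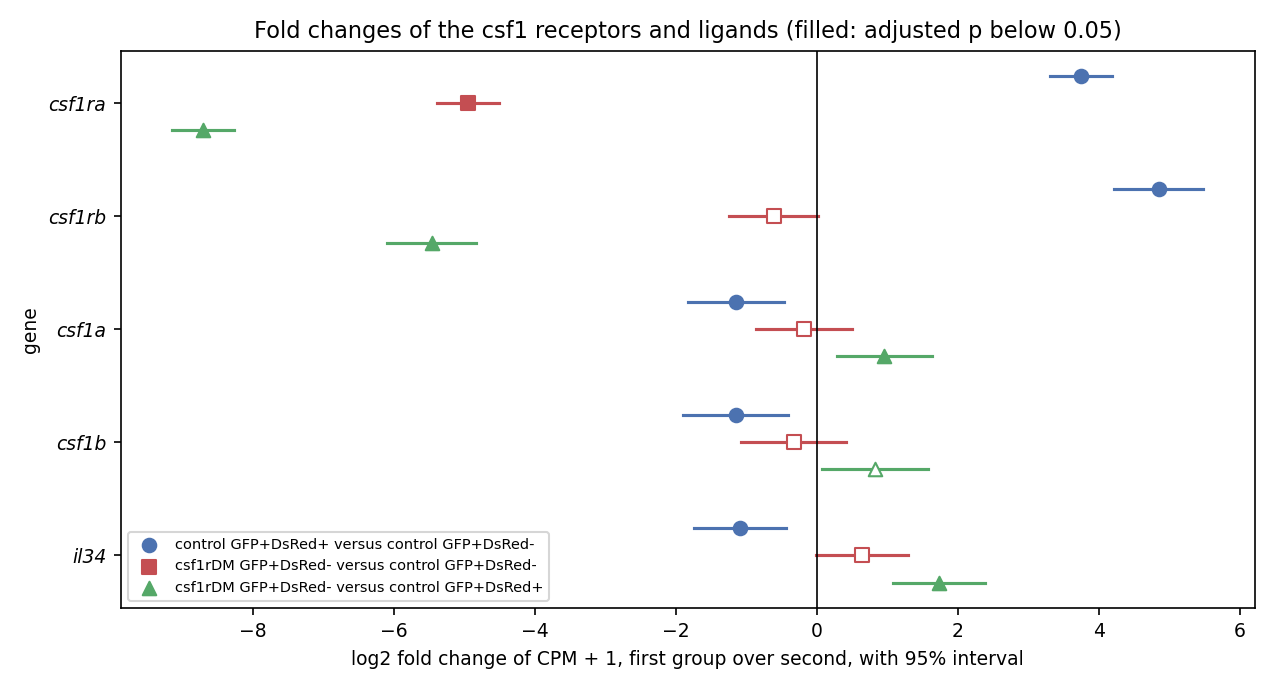
Log2 fold changes of CPM + 1 from limma for the 5 genes in the 3 comparisons, first group over second; lines are 95% intervals and filled symbols have an adjusted p below 0.05. The receptor genes csf1ra (3.75) and csf1rb (4.85) lie to the right and the ligand genes to the left of 0 between GFP+DsRed+ and GFP+DsRed- control cells, and between the genotypes csf1ra (-4.95) has the only filled symbol.

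The relay of the receptor signal was described with 31 gene names that matched 32 loci, as lyn occurs at a pair of loci. In GFP+DsRed+ relative to GFP+DsRed- control cells, 17 of 32 were called higher and 0 lower by limma, against 14.6% and 10.8% of all genes. At an unadjusted p below 0.05 the counts were 19 and 0, with no share of all genes at that threshold. The median log2 fold change was 0.72 against -0.03 over all genes tested. The largest was ptpn6, the gene of the SHP-1 phosphatase that restrains signalling in blood cells, with 220.5 and 260.7 CPM in GFP+DsRed+ control libraries and 48.9 and 27.4 CPM in GFP+DsRed- control libraries (log2 fold change 2.89, limma adjusted p = 0.000736). Next came the Src family kinase gene lyn (ENSDARG00000067916, 2.57, limma adjusted p = 0.00112), inpp5d, which encodes the lipid phosphatase SHIP1 (2.11, 0.00176), and the transcription factor gene stat5a (1.95, 0.001). The ubiquitin ligase genes cbl (1.47, limma adjusted p = 0.00413) and cblb (1.55, 0.00104), whose products bring the activated receptor to degradation in mammals, were also higher, as were the adaptor gene grb2b (1.70, 0.000293) and the PI3-kinase genes pik3r5 (1.85, 0.00189) and pik3cg (1.76, 0.00355). Genes that did not pass included akt1 (0.31, limma adjusted p = 0.539), src (-0.27, 0.308), mapk3 (-0.38, 0.157) and stat5b (-0.02, 0.96). Among other kinase genes of the list, hck had 260 and 403 CPM in GFP+DsRed+ and 332 and 121 CPM in GFP+DsRed- control libraries. For pik3cd the levels were 25.6 and 46.8 CPM in GFP+DsRed+ and 71.1 and 36.9 CPM in GFP+DsRed- control libraries. Both overlapped between the populations.

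Between csf1rDM and GFP+DsRed- control cells, 1 of the 32 relay loci was called higher and 0 lower by limma, and the median log2 fold change was 0. At an unadjusted p below 0.05 the counts were 7 and 2, again with no share of all genes at that threshold. The count of 1 in 32 called is close to the 3.24% of all genes called higher. The gene was sos1, a guanine nucleotide exchange factor for Ras, at 31.3 and 38.8 CPM in csf1rDM libraries and 22.5 and 16.6 CPM in GFP+DsRed- control libraries (log2 fold change 0.96, limma adjusted p = 0.0399). Compared with GFP+DsRed+ control cells, 0 relay loci were called higher (1 at an unadjusted p below 0.05) and 14 lower in csf1rDM cells by limma, against 14.1% of all genes called higher and 18.3% called lower, with a median of -0.72. Leukocyte genes moved in the direction of the relay genes in both comparisons with GFP+DsRed+ control cells, and their part was not tested.

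Genes for other partners of the ligands were few. In mammals PTPRZ1 and syndecan-1 bind IL-34, and ADAM17 releases CSF1 and CSF1R from the cell surface. The 6 zebrafish genes listed were ptprz1a, ptprz1b, adam17a, adam17b and the syndecan genes sdc2 and sdc4, which are not the syndecan-1 gene. In GFP+DsRed+ relative to GFP+DsRed- control cells, 2 were called higher and 1 lower, against 14.6% and 10.8% of all genes. The 1 lower gene is near the general rate. The 2 higher genes were sdc2 and sdc4, and binding of Il34 by their products was not tested. Levels of sdc2 were 173.7 and 214.5 CPM in GFP+DsRed+ control libraries and 77.0 and 54.2 CPM in GFP+DsRed- control libraries (log2 fold change 1.78, limma adjusted p = 0.000914), and sdc4 differed by 1.13 (0.0032). In the opposite direction, ptprz1a had 25.4 and 14.6 CPM in GFP+DsRed+ control libraries and 44.7 and 70.0 CPM in GFP+DsRed- control libraries (-1.28, limma adjusted p = 0.0322). The sheddase gene adam17a was at 115.5 and 118.5 CPM in GFP+DsRed+ control libraries and 123.6 and 99.5 CPM in GFP+DsRed- control libraries, which overlapped. Between csf1rDM and GFP+DsRed- control cells, 0 of the 6 genes were called in either direction by limma, and 0 at an unadjusted p below 0.05.

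Receptor kinases related to Csf1r and the other colony stimulating factor genes formed the last list of 11 genes. In GFP+DsRed+ relative to GFP+DsRed- control cells, 6 of 11 were called higher and 1 lower, against 14.6% and 10.8% of all genes, with a median log2 fold change of 1.27. The higher genes included csf2rb, the shared receptor subunit for Csf2-type cytokines (6.26, limma adjusted p = 9.93e-05), the granulocyte colony stimulating factor receptor gene csf3r (6.19, 8.55e-05) and one of its ligand genes, csf3a (3.19, 0.00115). The receptor kinase gene flt3 was at 24.7 and 72.2 CPM in GFP+DsRed+ control libraries and at 1.25 and 1.75 CPM in GFP+DsRed- control libraries (4.29, limma adjusted p = 0.00102). The 1 lower gene was kita, a receptor gene of melanophores, with 12.9 and 12.5 CPM in GFP+DsRed+ control libraries and 25.3 and 30.8 CPM in GFP+DsRed- control libraries (-0.87, limma adjusted p = 0.0299). Between the genotypes, kita was also the 1 of 11 genes called, against 3.24% of all genes called higher, with 52.8 and 72.8 CPM in csf1rDM libraries and 25.3 and 30.8 CPM in GFP+DsRed- control libraries (log2 fold change 1.27, limma adjusted p = 0.0268). The platelet-derived growth factor receptor gene pdgfrb, which lies next to csf1ra on the RefSeq assembly GRCz12tu, had 50.9 and 74.5 CPM in csf1rDM libraries and 69.5 and 42.4 CPM in GFP+DsRed- control libraries. It overlapped between the genotypes (0.33, limma adjusted p = 0.453), while csf1ra did not.

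**Figure D4:**
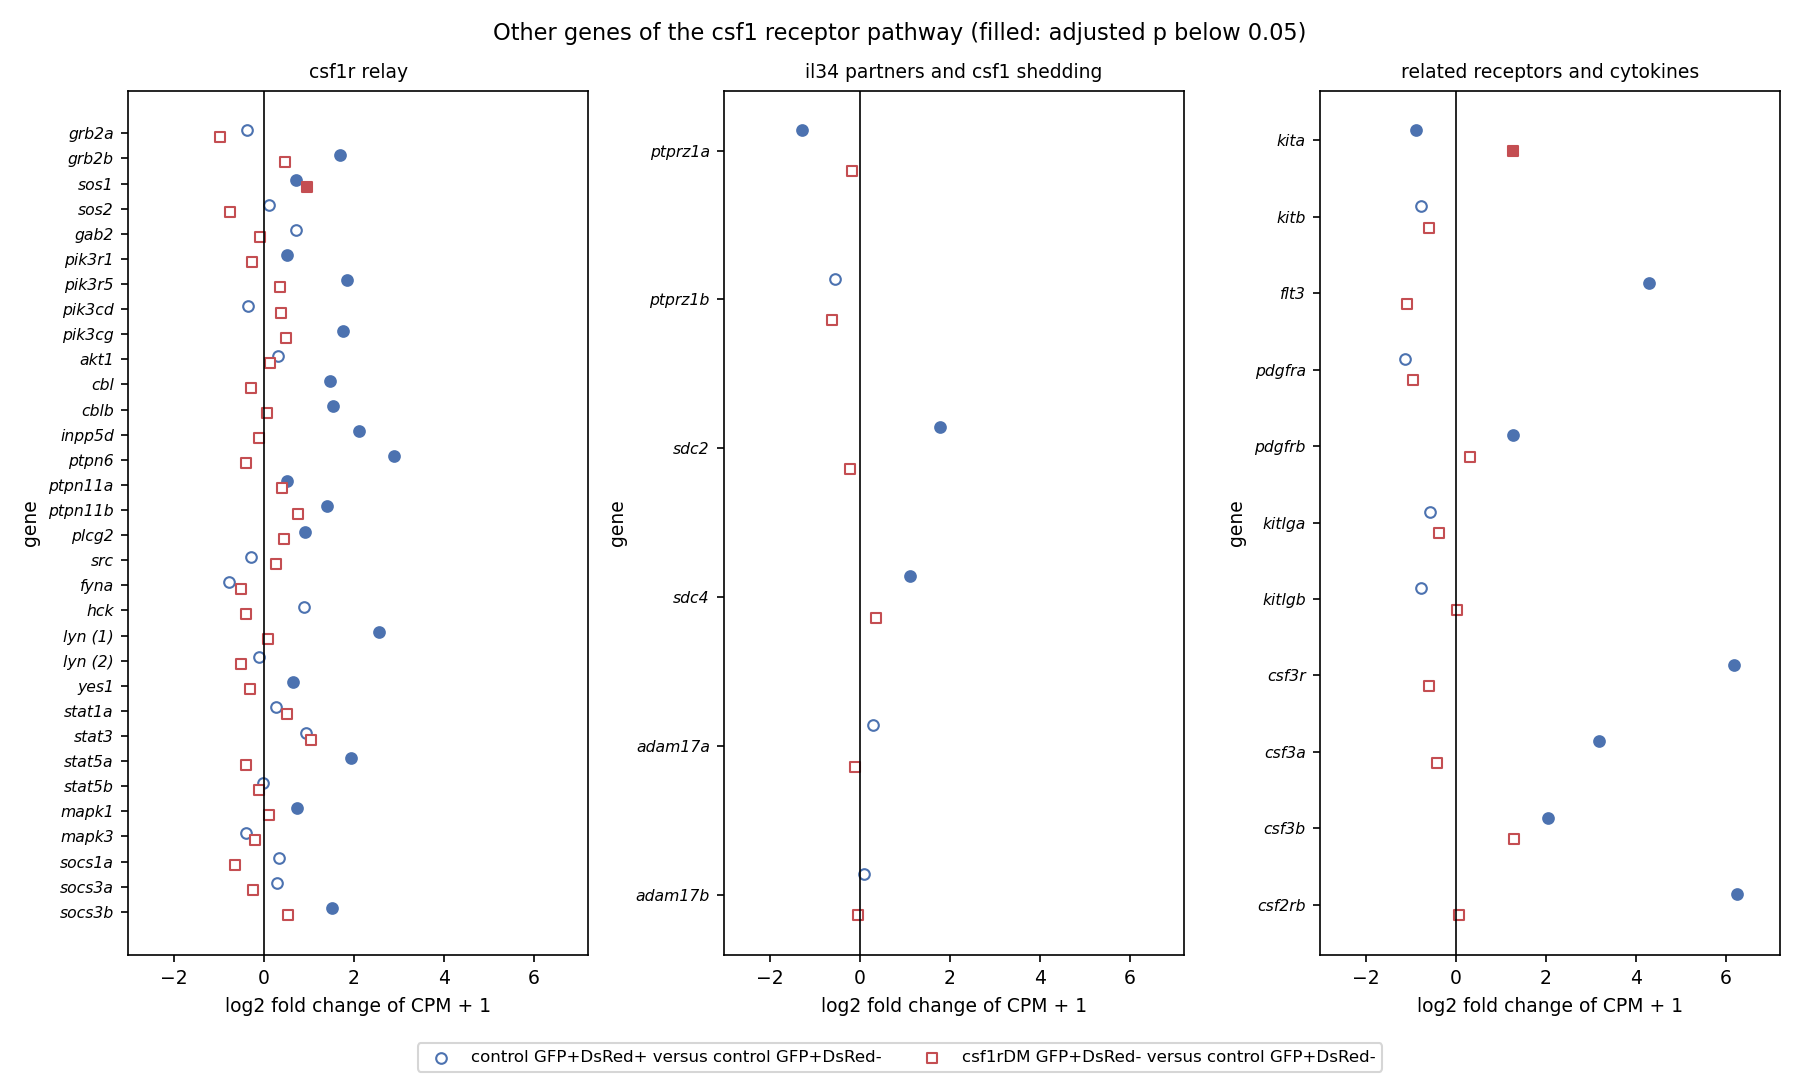
Log2 fold changes of CPM + 1 for the 32 relay loci, the 6 partner and shedding genes and the 11 related receptor and cytokine genes, in GFP+DsRed+ versus GFP+DsRed- control cells (circles) and csf1rDM GFP+DsRed- versus GFP+DsRed- control cells (squares), with filled symbols at an adjusted p below 0.05. Filled circles lie to the right of 0 for 17 of the relay loci, and 1 relay locus, sos1, has a filled square.

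Finally, the genes whose levels over the 6 libraries were most like those of each member were sought among 8680 genes with a mean of at least 10 CPM. Likeness was measured by Pearson's r of log2(CPM + 1), a description over 6 libraries that share their groups, and it does not measure how large a difference is. The genes named were picked for a high r over these same libraries, so their matching levels follow from the choice. For csf1ra, 208 genes had an r above 0.95, led by tmem176l.3a (0.9965), desi1a (0.9946), tcima (0.9929), trpv1 (0.9921) and fam45a (0.9918). Levels of desi1a were 7.3 and 8.25 CPM in csf1rDM libraries, 14 and 14.4 CPM in GFP+DsRed+ control libraries and 13.2 and 12.6 CPM in GFP+DsRed- control libraries, a far smaller spread than that of csf1ra. The ion channel gene trpv1 stood at 2.6 and 2.75 CPM in csf1rDM libraries, 282 and 265 CPM in GFP+DsRed+ control libraries and 32.1 and 27.4 CPM in GFP+DsRed- control libraries, and so had its intermediate level in GFP+DsRed- control cells, as csf1ra did. For csf1rb, 829 genes had an r above 0.95, with nol4lb (0.9996), ccl34b.8 (0.9991), npl (0.9989), cyfip1 (0.9989) and pmaip1 (0.9988) in front. The chemokine gene ccl34b.8 had no read in csf1rDM libraries, 27.6 and 48.7 CPM in GFP+DsRed+ control libraries and 0.45 and 0.60 CPM in GFP+DsRed- control libraries. Both ccl34b.8 and nol4lb reached a mean of 10 CPM only through the GFP+DsRed+ control libraries.

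For csf1a, 96 genes had an r above 0.95, and the first were lamc1 (0.9975), slit3 (0.9967), enah (0.9963), lrp1aa (0.9935) and hspg2 (0.9893). Of these, lamc1 encodes a laminin chain and hspg2 perlecan, both of basement membranes, and lamc1 had 166 and 227 CPM in csf1rDM libraries, 94 and 83.4 CPM in GFP+DsRed+ control libraries and 275 and 199 CPM in GFP+DsRed- control libraries. For csf1b, 164 genes had an r above 0.95, led by metrn (0.9975), epha2b (0.9964), elf3 (0.9957), ap1m3 (0.9944) and ANXA1 (1 of many) (0.9935). The epithelial transcription factor gene elf3 had 453 and 298 CPM in csf1rDM libraries, 217 and 183 CPM in GFP+DsRed+ control libraries and 439 and 531 CPM in GFP+DsRed- control libraries. For il34, 184 genes had an r above 0.95, with ftr86 (0.9933), klf3 (0.9928), frmd4ba (0.9927), efna1b (0.9925) and f2rl1.1 (0.9907) first. Transcripts of klf3, a transcription factor gene, stood at 160 and 110 CPM in csf1rDM libraries, 45.7 and 43.2 CPM in GFP+DsRed+ control libraries and 124 and 101 CPM in GFP+DsRed- control libraries.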

How the data were processed

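RNA of sorted mpeg1-GFP+ skin cells was sequenced in 6 libraries. Per the submitters' processing notes, the authors aligned reads with STAR 2.5.4b to GRCz11, counted them per gene with HTSeq 0.11.0 and tested them with edgeR. What was deposited is a signal made from those gene counts, each library scaled to a total of about 20000000 and rounded up. The scaling is read from the values, as the sources used here do not state it. Dividing by each library's step gave whole reads for at least 99.914% of values, which were used for depth, floors, read numbers, the receptor share and thinning only.

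CPM are the deposited signal relative to its total. They were scaled by TMM factors (0.922 to 1.128), transformed to log2(CPM + 1) and fitted with limma 3.58.1 (R 4.3.3, empirical Bayes with a trend) over all 6 libraries with one coefficient per group. Genes needed 1 CPM in at least 2 libraries. The fit was tested on simulated data. Members and gene lists were chosen with earlier results of these data known. Named genes were the members, the listed genes and the 5 genes with a mean of at least 10 CPM most like each member, leaving out clone or locus names and other members. Reads of lyn loci may be shared. Alternatives changed the scaling, filter, pseudocount, depth, samples fitted and replicate block. Figures used matplotlib 3.10.9.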

Additional observations from a re-analysis of the deposited data

How the results depend on the processing

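For the 5 genes, 155 alternative values kept their direction and side of the threshold, 29 lost a call, 1 gained one and 3 changed sign. The calls of csf1ra in the 3 comparisons and of il34 between csf1rDM and control GFP+DsRed+ cells held in every fit. Those of csf1rb in both comparisons with control GFP+DsRed+ cells held in every fit that could test them. None of those fits left out a control GFP+DsRed+ library. Between control GFP+DsRed+ and control GFP+DsRed- cells, 5 members were called, but 3 with no filter on low values, 2 with reads thinned to the shallowest library and 1 to 5 when each library was left out in turn. The causes were not tested. The genes called over all genes ranged from 1949 to 6115 when each library was left out in that comparison, from 115 to 1599 between the genotypes and from 3095 to 6518 between csf1rDM and control GFP+DsRed+ cells, where 2 to 4 members were called. Between the genotypes, 697 genes were called with no filter and 713 in a fit of only the 4 libraries compared. There the sign turned without single libraries for csf1a (-0.39 to 0.05) and csf1b (-0.71 to 0.06).

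Replicate numbers came from the sample titles, and each occurred in 2 of the 3 groups. Same-numbered libraries deviated from their group means with r of 0.031, 0.021 and -0.423. With 2 libraries per group, these values cannot show whether the numbers pair the samples. With a replicate block, 2 members and 2245 genes were called between the control populations, 67 genes between the genotypes, and 3750 genes between csf1rDM and control GFP+DsRed+ cells.

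Tests for counts were planned on recovered reads by edgeR and DESeq2 and were not run, because the values were rounded up and the recovery was not exact. Without a control GFP+DsRed+ library, and in the fit of the 4 GFP+DsRed- libraries, csf1rb did not pass the filter. Low read numbers limit csf1a and csf1rb.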
